A study of Homo sapiens with 6 samples.

Results

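The 10 genes described here are 6 transcription factors that drive epithelial-mesenchymal transition (EMT), SNAI1, SNAI2, TWIST1, TWIST2, ZEB1 and ZEB2, and 4 adhesion or matrix genes whose levels mark its course, CDH1, CDH2, EPCAM and FN1. They were chosen by name from the 58735 genes of the deposited table. Poly(A) RNA was sequenced in 6 libraries of cells labelled Hep3B, a line from a human hepatocellular carcinoma. Of these, 3 carried a control short hairpin RNA (shRNA) and 3 an shRNA against HYOU1, a chaperone of the endoplasmic reticulum. The labels do not speak of separate cultures, so the spread behind each p-value is that between libraries and may be technical only. In bulk RNA, fewer cells of a type and less RNA per cell cannot be told apart.

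EMT is the change by which epithelial cells loosen their junctions and take on a motile, matrix-producing state. The SNAI and ZEB zinc finger proteins bind E-box sequences in promoters of epithelial genes and repress them, while the TWIST proteins are basic helix-loop-helix factors that pair with E proteins. CDH1 encodes E-cadherin, the adhesion receptor of epithelial adherens junctions, CDH2 encodes N-cadherin, EPCAM encodes an epithelial surface glycoprotein and FN1 encodes fibronectin, which hepatocytes also secrete into plasma.

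HYOU1 fell by 4.38 on the log2 scale (limma, adjusted p = 0.00119), from a control range of 37.6 to 59.5 FPKM to between 2.32 and 2.37 FPKM. FPKM is the number of fragments per kilobase of gene length, scaled to the size of the library. The libraries held 16893091 to 18233240 fragments. Against the label, 0 of 13 hepatocyte markers reached a mean of 1 FPKM, and 5 (APOA2, APOB, ALB, APOH and TTR) were listed at 0 in every library. Their low sum was 2.62 to 2.92 FPKM in the controls and 0.931 to 1.09 FPKM in the HYOU1 shRNA group, without overlap. Of 6 biliary markers 4 reached that mean, with summed levels of 57.5 to 63.4 FPKM in the controls and 64.6 to 68.8 FPKM in the HYOU1 shRNA group. Fibroblast markers reached it for 3 of 10, with sums of 9.82 to 11.1 and 9.37 to 9.84 FPKM that overlapped between the groups. No endothelial marker (of 7) did, with sums of 0.576 to 0.671 and 0.179 to 0.221 FPKM that did not overlap, and no immune marker (of 8), with overlapping sums of 0.602 to 2.06 and 0.728 to 1.02 FPKM. The part of these markers in the differences below was not tested. Along GC content, control replicate 1 differed from control replicates 2 and 3, so results that rest on it are given with and without it.

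With all 6 libraries, none of the 10 genes passed the test between the groups. Of the 10, 7 had a mean of at least 1 FPKM and were tested (limma on log2(FPKM + 0.1), Benjamini-Hochberg adjusted p under 0.05 over 12448 genes). Of these 7, 0 passed, where 12.3% of all tested genes did, 6.6% higher and 5.66% lower with HYOU1 shRNA. In 4 of 7, SNAI1, TWIST1, TWIST2 and EPCAM, every HYOU1 shRNA library lay above every control, as in 23.8% of all tested genes (44.4% did not overlap in either direction). The same 4 had an unadjusted p under 0.05, against 31.5% of all tested genes (17% in the higher direction). The median log2 difference of the 7 was 0.54, against 0.04 over all tested genes.

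Leaving out control replicate 1 or correcting for GC content moved 5 of the 7 past the threshold, but moved a large share of all genes too. Without that library SNAI1, TWIST1, TWIST2, CDH2 and EPCAM rose, where 44.3% of all tested genes passed and 24.6% rose. After the GC correction the same 5 rose, where 40.6% passed and 20.4% rose. Both together called 5 (48.6% of all tested genes), and the GC correction with the replicate number as a block called 3 (36.2%). Other settings called 2 with rescaling to TPM (12.2%), and 1 each with limma-voom on recovered fragments (14.5%), a pseudocount of 1 (12.9%), a filter of 5 FPKM (13.1%) and without control replicate 3 (8.21%). The block alone called 0 (7.55%).

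**Figure D1:**
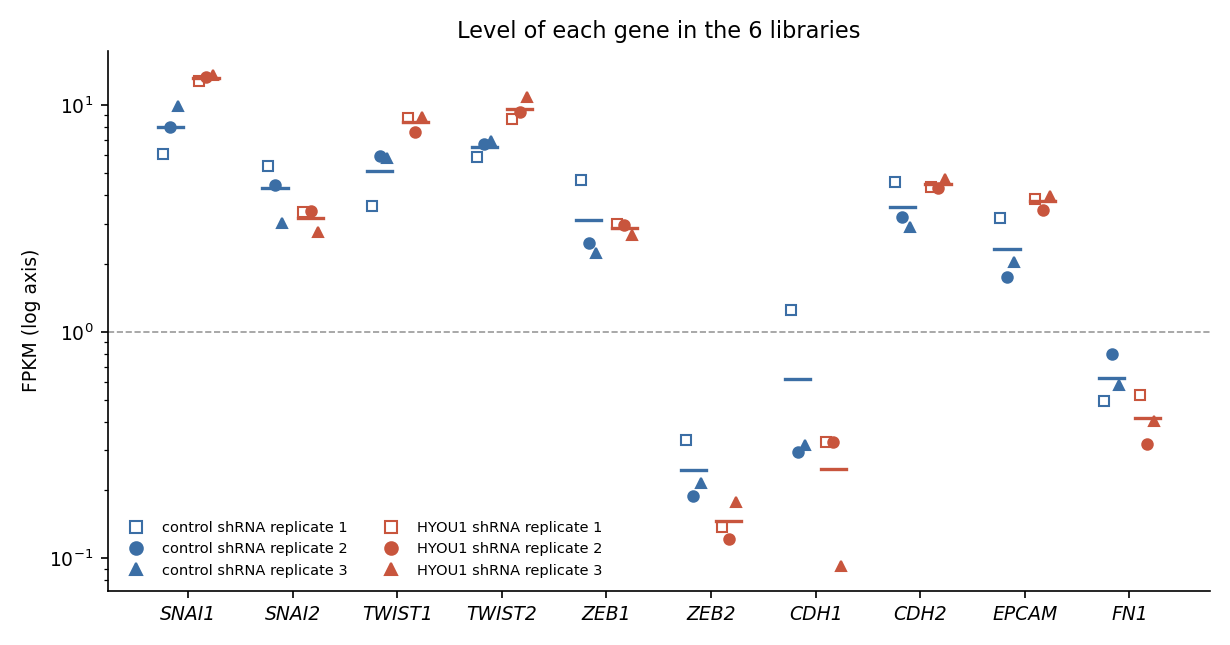
FPKM on a log axis of the 10 genes in the 6 libraries, with controls in blue, HYOU1 shRNA in red, a line at each group mean (n = 3) and a dashed line at 1 FPKM, the level needed for testing. SNAI1, TWIST1, TWIST2 and EPCAM show no overlap between the groups, and control replicate 1 lies apart for CDH1 (1.25 FPKM) and ZEB1 (4.68 FPKM).

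SNAI1 (ENSG00000124216, chromosome 20, 49982999 to 49988886 on GRCh38), a direct repressor of CDH1, had the highest mean level of the 10 genes. Control replicates 1 to 3 measured 6.08, 8.04 and 9.91 FPKM, against 12.8, 13.2 and 13.5 FPKM in replicates 1 to 3 of the HYOU1 shRNA group. Every HYOU1 shRNA library was above every control, and the controls were the more spread group. Group means came to 8.01 ± 1.92 and 13.2 ± 0.390 FPKM (SD, n = 3 each), a log2 difference of 0.74 (SE 0.19; limma, adjusted p = 0.0516). SNAI1 rose by 0.56 without control replicate 1 (limma, adjusted p = 0.00226), by 0.90 without control replicate 3 (limma, adjusted p = 0.0388) and by 0.50 after the GC correction (limma, adjusted p = 0.00330). It did not pass without control replicate 2 (limma, adjusted p = 0.116). Nor did it pass without HYOU1 shRNA replicate 1, 2 or 3 (limma, adjusted p = 0.163, 0.178 and 0.187).

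SNAI2 (ENSG00000019549), also called Slug, is a repressor of the same family and had overlapping groups. Its controls measured 5.41, 4.45 and 3.02 FPKM, and its HYOU1 shRNA libraries 3.36, 3.42 and 2.76 FPKM. Control replicate 3 lay below HYOU1 shRNA replicates 1 and 2. The log2 difference was -0.39, with a 95% interval from -0.95 to 0.17 (limma, adjusted p = 0.296). Without control replicate 1 it was -0.21 (limma, adjusted p = 0.370).

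TWIST1 (ENSG00000122691, chromosome 7, 19020991 to 19117672) and TWIST2 (ENSG00000233608, chromosome 2, 238848032 to 238910543) encode closely related factors, so how reads from their conserved parts were assigned is uncertain. TWIST1 measured 3.60, 5.96 and 5.87 FPKM in the controls and 8.79, 7.58 and 8.83 FPKM in the HYOU1 shRNA libraries. TWIST2 measured 5.93, 6.76 and 6.97 FPKM in the controls and 8.66, 9.36 and 10.8 FPKM in the HYOU1 shRNA libraries. Neither gene overlapped between the groups, and for TWIST1 control replicate 1 was the lowest library by a wide margin. The log2 difference was 0.73 for TWIST1 (SE 0.22; limma, adjusted p = 0.0762) and 0.54 for TWIST2 (SE 0.14; limma, adjusted p = 0.0512). Without control replicate 1 TWIST1 rose by 0.50 (limma, adjusted p = 0.00336) and TWIST2 by 0.47 (limma, adjusted p = 0.00658). After the GC correction TWIST1 rose by 0.53 (limma, adjusted p = 0.00421) and TWIST2 by 0.35 (limma, adjusted p = 0.0495). Neither passed when any other single library was left out. There TWIST1 had adjusted p from 0.0818 to 0.241 and TWIST2 from 0.0778 to 0.213 (limma).

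ZEB1 (ENSG00000148516, chromosome 10, 31318495 to 31529814) and ZEB2 (ENSG00000169554, chromosome 2, 144364364 to 144524583) encode zinc finger repressors that share a homeodomain-like region. ZEB1 measured 4.68, 2.46 and 2.22 FPKM in the controls and 2.99, 2.96 and 2.68 FPKM in the HYOU1 shRNA libraries. Control replicate 1 was the highest library and the other controls the lowest. The log2 difference was -0.04, with a 95% interval from -0.72 to 0.65 (limma, adjusted p = 0.938). It reversed to 0.29 without control replicate 1 (limma, adjusted p = 0.0867) and to 0.15 after the GC correction (limma, adjusted p = 0.336). ZEB1-AS1, on the opposite strand, shares 4.23% of the exonic bases of ZEB1 and had a mean of 2.32 FPKM, and without a stated strand setting their reads cannot be told apart there.

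The length behind FPKM counts all annotated exonic bases, 8650 for ZEB1 and 25058 for ZEB2. A gene whose transcripts hold only part of these bases gets too low a level. Per such length ZEB2 was far weaker than ZEB1. It measured 0.332, 0.190 and 0.216 FPKM in the controls against 0.138, 0.122 and 0.178 FPKM in the HYOU1 shRNA libraries. These values rest on 56 to 142 fragments a library, and every HYOU1 shRNA library lay below every control. Among tested genes 44.4% did not overlap in either direction, and the share among genes as weak as ZEB2 was not counted. With a filter of 0.1 FPKM, under which 6.99% of 20512 genes passed, ZEB2 differed by -0.48 and did not pass (limma, adjusted p = 0.481). Without control replicate 1 it differed by -0.30 (limma, adjusted p = 0.638), and with all libraries by -0.12 at a pseudocount of 1.

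ZEB1 and ZEB2 are textbook targets of the miR-200 family, small RNAs that hold epithelial cells in their state and whose own genes the ZEB proteins repress. Their mature sequences, from RefSeq (GRCh38.p14), are shown because the seeds (bases 2 to 8, in capitals) define the sites to look for, and they fall into 2 seed groups. The family was chosen after values of these data were seen.
hsa-miR-200b-3p: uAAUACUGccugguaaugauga
hsa-miR-200c-3p: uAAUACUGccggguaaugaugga
hsa-miR-429: uAAUACUGucugguaaaaccgu
hsa-miR-200a-3p: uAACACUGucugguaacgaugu
hsa-miR-141-3p: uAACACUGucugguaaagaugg

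The 3′ untranslated region of ZEB1 (the longest in GENCODE release 29) held 9 matches to these seeds, 6 of CAGTATT and 3 of CAGTGTT. That of ZEB2 held 9 as well, 5 and 4. Among 10606 tested genes with such a region, 33% held at least 1 match and 0.0377% held 9 or more. These shares were not matched for length, and longer regions have more room for matches. The region had 2549 bases in ZEB1 and 5370 in ZEB2, against a median of 1357. FN1 held 2 matches, and SNAI1, TWIST1, TWIST2, CDH1, CDH2 and EPCAM held 0. SNAI2 was not looked at. A site of each kind is shown for both genes, with the match in capitals.
ZEB1 site for miR-200b: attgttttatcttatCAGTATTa
ZEB1 site for miR-200a: caaaatcatcagaatCAGTGTTt
ZEB2 site for miR-200b: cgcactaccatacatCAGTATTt
ZEB2 site for miR-200a: tgcaaaaattttgtaCAGTGTTa

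A match describes letters and not binding, and poly(A) libraries do not measure mature miRNAs. The host transcript MIR200CHG was listed at 0 in all 6 libraries, where a count of 3 fragments corresponds to no more than 0.502 FPKM. MIR200A, MIR200B, MIR200C and MIR141 were listed at 0 too, and MIR429 had 1 fragment over all libraries.

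The E-box bound by SNAI and ZEB proteins, CACCTG or on the other strand CAGGTG, was looked for in promoter windows from RefSeq (GRCh38.p14) that run from 250 bases before to 50 bases after a start site. Windows were matched for TWIST2, ZEB1, ZEB2, CDH2 and FN1. Those of SNAI1, SNAI2, TWIST1, CDH1 and EPCAM were not used here. Of 12 windows 2 held the motif, both among the 7 windows of ZEB1, and 20.6% of all 35116 windows held it. The 250 bases before the most upstream of these ZEB1 starts (chr10:31318167-31318416, plus strand) are shown because they carry a motif that the ZEB1 protein itself recognises, in capitals, 57 bases before the start.
ZEB1 promoter: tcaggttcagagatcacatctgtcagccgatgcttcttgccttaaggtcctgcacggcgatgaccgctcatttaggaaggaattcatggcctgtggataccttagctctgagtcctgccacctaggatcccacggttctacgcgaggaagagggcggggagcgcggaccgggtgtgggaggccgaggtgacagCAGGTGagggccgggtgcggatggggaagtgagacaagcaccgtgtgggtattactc

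The cadherins were unequal in level in every library. CDH2 (ENSG00000170558, chromosome 18, 27950966 to 28177446), which joins mesenchymal and neural cells, measured 4.56, 3.19 and 2.89 FPKM in the controls and 4.37, 4.32 and 4.73 FPKM in the HYOU1 shRNA libraries. Control replicate 1 lay within the HYOU1 shRNA range and the other controls below it. The log2 difference was 0.35 (SE 0.19; limma, adjusted p = 0.259). CDH2 rose by 0.54 without control replicate 1 (limma, adjusted p = 0.00349) and by 0.44 after the GC correction (limma, adjusted p = 0.0242). It did not pass when any other single library was left out (limma, adjusted p from 0.414 to 0.510).

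CDH1 (ENSG00000039068, chromosome 16, 68737225 to 68835548) measured 1.25, 0.294 and 0.316 FPKM in the controls and 0.326, 0.326 and 0.0925 FPKM in the HYOU1 shRNA libraries. A single library at each end set the spread. Control replicate 1 held 132 fragments and HYOU1 shRNA replicate 3 held 10, where the remaining libraries held 34 to 37. The exact 95% Poisson interval of the lowest library, 0.0444 to 0.170 FPKM, lay below all others, which started at 0.203 FPKM or higher. Such intervals cover counting error only. The group means were 0.620 ± 0.547 and 0.248 ± 0.135 FPKM (SD, n = 3 each). With a filter of 0.1 FPKM the log2 difference was -0.89 (limma, adjusted p = 0.409). Without control replicate 1 it was -0.31 under that filter (limma, adjusted p = 0.689), where 26.5% of genes passed, without HYOU1 shRNA replicate 3 -0.51, and with a pseudocount of 1 -0.33.

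FPKM is a level per gene length, so the cadherins can be compared within a library. The level of CDH2 over that of CDH1 was 3.64, 10.9 and 9.16 in the controls and 13.4, 13.3 and 51.2 in the HYOU1 shRNA libraries. The ratio was larger in every HYOU1 shRNA library than in any control. In control replicates 2 and 3 and HYOU1 shRNA replicates 1 and 2, however, CDH1 was at 0.294 to 0.326 FPKM. These levels rest on 34 to 37 fragments, and their Poisson intervals, within 0.203 to 0.451 FPKM, overlapped. The order of those ratios is thus uncertain from counting error in CDH1. The log2 ratio of CDH1 to CDH2 was -2.83 ± 0.85 in the controls and -4.38 ± 1.12 in the HYOU1 shRNA group (SD, n = 3 each). The difference of -1.55 gave p = 0.1 in an exact two-sided permutation test, the smallest p that 3 against 3 allows. It was -0.90 without HYOU1 shRNA replicate 3 and -1.07 without control replicate 1. These outlying libraries were not left out together, so each of these differences still holds 1 of them.

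EPCAM (ENSG00000119888, chromosome 2, 47345158 to 47387601), a surface marker of carcinomas, measured 3.16, 1.74 and 2.04 FPKM in the controls and 3.86, 3.46 and 3.97 FPKM in the HYOU1 shRNA libraries. All HYOU1 shRNA libraries were above all controls, with control replicate 1 the nearest beneath them. Group means came to 2.31 ± 0.752 and 3.76 ± 0.270 FPKM (SD, n = 3 each), a log2 difference of 0.72 (SE 0.23; limma, adjusted p = 0.0913). EPCAM rose by 0.96 without control replicate 1 (limma, adjusted p = 0.000606) and by 0.77 after the GC correction (limma, adjusted p = 0.0167). It did not pass when any other single library was left out (limma, adjusted p from 0.161 to 0.266). In liver EPCAM is found on bile duct cells, and the summed biliary markers were also higher in every HYOU1 shRNA library. Their part in the difference was not tested.

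FN1 (ENSG00000115414, chromosome 2, 215360440 to 215436172) measured 0.494, 0.798 and 0.582 FPKM in the controls and 0.526, 0.321 and 0.406 FPKM in the HYOU1 shRNA libraries. The lowest control, replicate 1, lay within the HYOU1 shRNA range. With a filter of 0.1 FPKM the log2 difference was -0.48 (limma, adjusted p = 0.367). Without control replicate 1 it was -0.62 (limma, adjusted p = 0.195), without control replicate 2 -0.32, and with a pseudocount of 1 -0.20. FN1 was weak per length, but its 17315 exonic bases gave 102 to 259 fragments a library.

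In the controls the mean levels ran from SNAI1 at 8.01 FPKM through TWIST2, TWIST1, SNAI2, CDH2 and ZEB1 to EPCAM at 2.31 FPKM. FN1, CDH1 and ZEB2 followed at 0.625, 0.620 and 0.246 FPKM. All neighbours in this order overlapped except EPCAM and FN1. In the HYOU1 shRNA group the order was SNAI1, TWIST2, TWIST1, CDH2, EPCAM, SNAI2, ZEB1, FN1, CDH1 and ZEB2. There TWIST2 with TWIST1, SNAI2 with ZEB1, FN1 with CDH1, and CDH1 with ZEB2 overlapped. By mean level SNAI1 was above 65.3% of the tested genes, TWIST2 above 57.2% and EPCAM above 27.9%. The order depends on gene length. FN1, under the filter, held 974 fragments over all libraries, against 819 for EPCAM, which was tested.

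**Figure D2:**
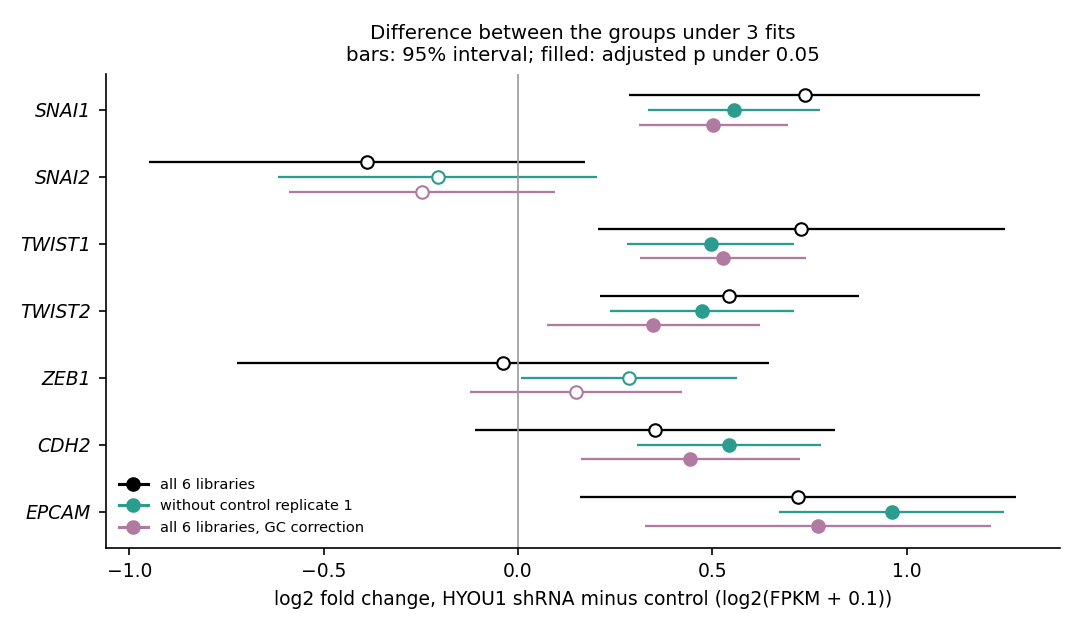
Log2 fold changes of the 7 tested genes (points) with unadjusted 95% intervals (bars) for all 6 libraries, for the 5 without control replicate 1 and with the GC correction, where filled points had an adjusted p under 0.05. With all 6 libraries the points are open, from -0.39 for SNAI2 to 0.74 for SNAI1, and SNAI1, TWIST1, TWIST2, CDH2 and EPCAM are filled in the other fits.

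The 10 genes differ in base composition, from 38.5% GC in the longest transcript of ZEB1 to 58.2% in SNAI1. Tested genes were put in 10 equal groups by GC content, and in each the median log2 deviation of control replicate 1 from the mean of the other controls was taken. It ran from 0.76 in the group of lowest GC content to -1.0003 in the group of highest GC content. SNAI1 deviated by -0.55, where the median of its GC group was -0.52, and ZEB1 by 0.97 against 0.76. TWIST1 deviated by -0.70 and TWIST2 by -0.21, both against -0.52. These factors moved in the direction of their group. So did SNAI2 and CDH2, at 0.55 and 0.57 against 0.48 and 0.30. CDH1 at 1.74 and EPCAM at 0.72, both against 0.11, and FN1 at -0.40 against 0.48 lay farther away. CDH1 and FN1 were below the filter, and no median was taken among genes as weak.

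**Figure D3:**
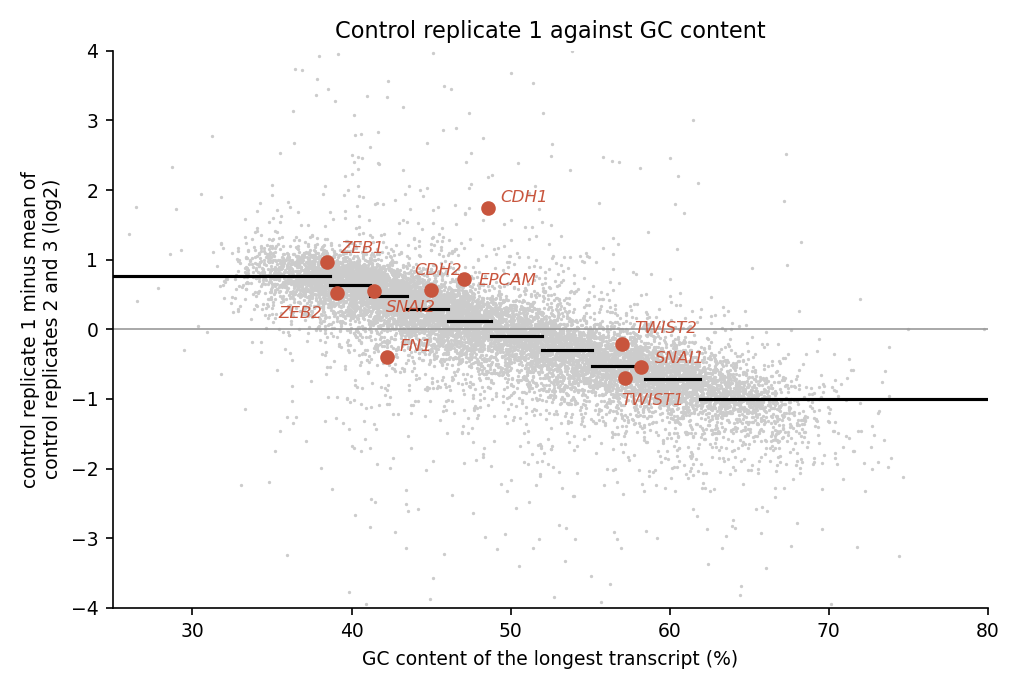
Log2 deviation of control replicate 1 from the mean of control replicates 2 and 3 against the GC content of the longest transcript, with each tested gene in grey, medians of 10 equal groups of genes in black and the 10 described genes in red. The medians fall from 0.76 to -1.0003 with rising GC content, CDH1 lies at 1.74 and FN1 at -0.40, and points outside the axes are not drawn.

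Genes around these factors were described from 10 lists with 135 tested genes, of which 33 passed. The share over all tested genes, against which each list is to be read, was 12.3%, with 6.6% higher and 5.66% lower, and no list was tested against it. Of these calls 33 were kept without control replicate 1, 9 without control replicate 2 and 23 without control replicate 3. Leaving out HYOU1 shRNA replicates 1, 2 or 3 kept 0, 1 or 0. After the GC correction 31 were kept, all but ID1 and NECTIN1.

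Among 16 tested partners and co-repressors of the EMT factors 1 rose and 1 fell, or 12.5%, with a median log2 difference of -0.03. ID1, a helix-loop-helix protein that sequesters the E protein partners of TWIST, rose from 52.9 ± 6.33 to 93.5 ± 3.39 FPKM (SD, n = 3 each), by 0.83 (limma, adjusted p = 0.0128). HDAC1, a histone deacetylase recruited by SNAI proteins, fell by 0.48 (limma, adjusted p = 0.0431). Of 15 enzymes that act on the factors as proteins 1 rose and 1 fell, or 13.3%, with a median of 0.0019. Both shares are near that of all genes. CTDSP1, a phosphatase that acts on SNAI1, fell from 12.9 ± 2.57 to 5.15 ± 0.370 FPKM (SD, n = 3 each), by 1.29 (limma, adjusted p = 0.0117). PAK1, a kinase that phosphorylates SNAI1, rose by 0.53 (limma, adjusted p = 0.0304).

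Among 12 other transcription factors linked to EMT 4 fell and 1 rose, with a median of -0.15. The forkhead genes FOXQ1 and FOXC1 fell by 1.04 (limma, adjusted p = 0.0315) and 0.84 (limma, adjusted p = 0.00872). SMAD2, which carries TGF-beta signals to the nucleus, fell by 0.84 (limma, adjusted p = 0.0278). Of 7 tested factors of the epithelial state 1 rose and 0 fell, with a median of -0.18. The gene that rose was KLF4, a zinc finger factor of differentiating epithelia, by 0.67 (limma, adjusted p = 0.0309).

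Of 21 other cadherins 2 could be tested and 0 passed. CDH24 differed by 0.77 (limma, adjusted p = 0.106) and CDH13, which lacks a cytoplasmic tail, by -0.27 (limma, adjusted p = 0.268). Catenins and adherens junction partners had 4 rises and 0 falls among 14 tested genes, or 28.6%, with a median of 0.49. NECTIN4, an adhesion receptor, rose by 1.14, AFDN, which ties nectins to actin, by 0.93, EZR, which links actin to the membrane, by 0.70 and NECTIN1 by 0.65. NECTIN4 had a control mean of 0.970 FPKM and reached the filter of 1 FPKM only through the HYOU1 shRNA group, at 2.24 FPKM, so its call is no support for the count. The catenins that bind E-cadherin were abundant beside CDH1 itself. CTNNB1, beta-catenin, measured 26.1 ± 4.07 and 35.2 ± 1.68 FPKM (SD, n = 3 each; limma, adjusted p = 0.0875). It rose once control replicate 1 was left out and also once GC content was corrected for. CTNNA1, alpha-catenin, measured 71.4 ± 7.35 and 73.6 ± 1.34 FPKM (SD, n = 3 each) and did not pass in any of these fits. Both are named after their values were seen.

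Tight junction and desmosome genes had 3 rises and 1 fall among 18 tested, or 22.2%, with a median of 0.35. LSR, found at tricellular junctions, was at 0.569 ± 0.0877 and 2.06 ± 0.211 FPKM (SD, n = 3 each), a log2 difference of 1.69. It too reached the filter only through the HYOU1 shRNA group, so its call is no support for the count. CLDN1, a barrier-forming claudin, rose by 1.43 (limma, adjusted p = 0.00812) and F11R, the junctional adhesion molecule A, by 1.05 (limma, adjusted p = 0.0183). DSC2, a desmosomal cadherin, fell from 3.96 ± 1.40 to 1.15 ± 0.0222 FPKM (SD, n = 3 each), by 1.65 (limma, adjusted p = 0.0137). Of 19 partners and processing enzymes of EPCAM 2 rose and 3 fell, with a median of -0.12. CD9, a tetraspanin, rose by 0.60 and CD44, a hyaluronan receptor, by 0.55. BACE1, a protease, fell by 0.70, and 17.2% of its exonic bases overlap RNF214 on the opposite strand.

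Fibronectin receptors and assembly genes had 2 rises and 2 falls among 15 tested, or 26.7%, with a median of 0.23. The syndecans SDC2 and SDC4, coreceptors in fibronectin adhesion, rose by 1.15 and 0.71. ITGAV, an integrin subunit that binds fibronectin, fell by 1.06 (limma, adjusted p = 0.0466) and PTK2, focal adhesion kinase, by 0.68 (limma, adjusted p = 0.0375). Mesenchymal effector genes had 4 rises and 2 falls among 18 tested, or 33.3%, although their median was -0.23. The receptor tyrosine kinase AXL and the collagen gene COL1A1 each rose by 1.09 (limma, adjusted p = 0.0217 and 0.0159). The proteoglycan gene DCN fell by 1.35. VIM, the intermediate filament of mesenchymal cells, rose from 86.2 ± 9.92 to 124 ± 2.97 FPKM (SD, n = 3 each; limma, adjusted p = 0.0341). FBN1 fell by 0.60, from 19.5 ± 2.58 to 12.7 ± 0.358 FPKM (SD, n = 3 each, limma, adjusted p = 0.0337). VIM and FBN1 are named after their values were seen. COL1A1 and DCN are also among the fibroblast markers, whose part in these changes was not tested.

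**Figure D4:**
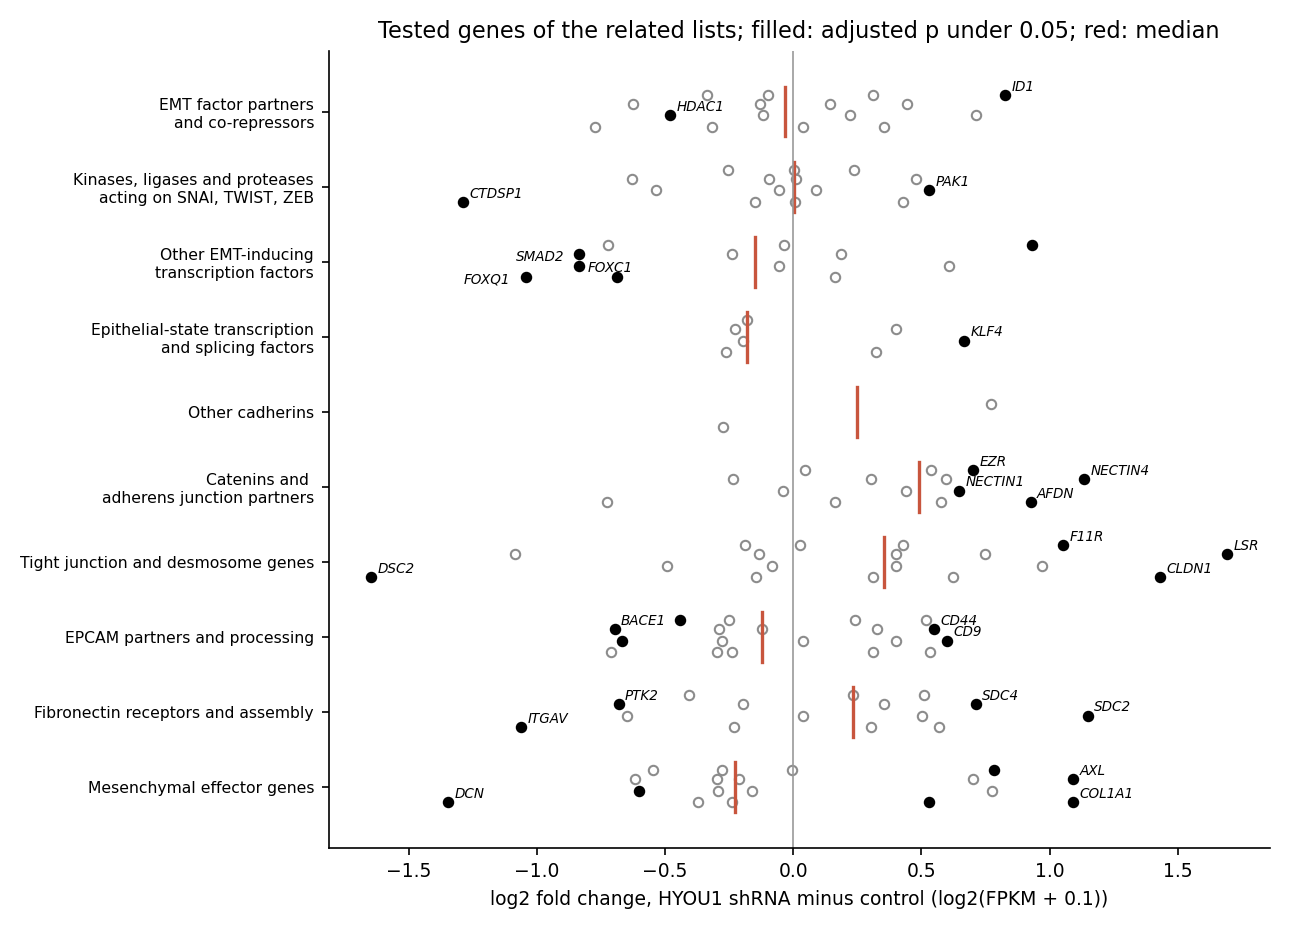
Log2 fold changes (HYOU1 shRNA minus control) of the tested genes of 10 related lists, with filled points for an adjusted p under 0.05, open points for the others and a red line at each list's median. The medians run from -0.23 in mesenchymal effector genes to 0.49 in catenins and adherens junction partners, with DSC2 at -1.65 and, at 1.69, LSR, which reached the filter only through the HYOU1 shRNA group.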

How the data were processed

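The authors deposited a single table of FPKM values for 58735 genes, with gene lengths and coordinates. Aligner, counting tool and strand setting: not given in the sources used here. Every gene identifier and its coordinates matched GENCODE release 29 on GRCh38. FPKM times gene length came in whole multiples of 1 step per library for 99.86% of values or more (tolerance 0.01), which gave the fragments; voom on these called 1806 genes, against 1526. FPKM was not a count, so limma 3.58.1 in R 4.3.3 (variance trend, robust priors) was run on log2(FPKM + 0.1) in genes averaging 1 FPKM or more, and this pseudocount understates changes of weak genes. To correct for GC content, lowess (span 0.3) was fitted within libraries to each gene's difference from its mean over the libraries, against the GC content of its longest transcript, and subtracted; this also takes away any real difference that follows GC content. The members and lists were chosen with earlier results of these data known. Named are all members, HYOU1 and, from each list, up to 4 called genes with the largest change, or the 2 highest in level where none was called; some genes that this rule names are counted but not reported here. Since 0 members were called, no genes of similar pattern were named. Alternatives were a pseudocount of 1 or 0.01, a filter of 0.1 or 5 FPKM or no filter, TPM and quantile scaling, the replicate block, the GC correction with and without the block, no variance trend, voom and leaving out each library. A filter of 0.1 with the GC correction, that filter without control replicate 1, and the GC correction without control replicate 1 were added after seeing the data.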

Additional observations from a re-analysis of the deposited data

How the results depend on the processing

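Of the 7 tested genes of interest, 0 passed with all libraries as deposited. The number was 5 after the GC correction, alone or without control replicate 1, 3 with the replicate block and the GC correction, 2 with TPM scaling, and 1 with a pseudocount of 1, with a filter of 5 FPKM and with voom. It lay between 0 and 5 when single libraries were left out. All genes that passed numbered 1526, against 938 with a filter of 5 FPKM, 770 without a filter, 940 with the replicate block, 5048 after the GC correction, 4504 with the block and the GC correction, and 6049 with the GC correction and without control replicate 1. Leaving out single libraries gave between 49 (HYOU1 shRNA replicate 3) and 5518 (control replicate 1). ZEB1 changed sign to 0.15 after the GC correction with or without the block, 0.18 with a filter of 0.1 FPKM as well, and 0.25 with the GC correction and without control replicate 1. Without single libraries it lay between -0.23 and 0.29, the latter also with a filter of 0.1 FPKM, and was 0.01 without HYOU1 shRNA replicate 3. The cause was not tested.

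The labels do not say whether libraries with the same replicate number were handled together. Deviations from the group means correlated across genes at 0.12, -0.09 and 0.17 for replicates 1, 2 and 3. Control replicates 1 and 3 correlated best with the HYOU1 shRNA replicate of the same number. Control replicate 2 correlated best with HYOU1 shRNA replicate 3, at 0.16. The block alone changed no call among the 7 genes. With the GC correction, CDH2 and TWIST2 did not pass under the block (limma, adjusted p = 0.0511 and 0.0847). Depth limits CDH1 and ZEB2 most, with as few as 10 and 56 fragments in a library.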

Other observations

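Control replicate 1 was also the highest library for most weakly expressed genes of the epithelial state, a pattern noticed after the values were seen. Of the 19 factors in that list, 8 had a mean from 0.05 to under 1 FPKM. Of these, 7 were highest in control replicate 1, against 25.2% of the 10730 genes in that range, and 5 exceeded every other library at least 2-fold there, against 9.05%. The shares were not matched for GC content. GRHL1, TP63, EHF and ESRP1 had 42.3% to 42.8% GC, where the median deviation of control replicate 1 was 0.48. GRHL2, GRHL3 and OVOL1 had 49.8% to 58.3% GC, in groups with medians of -0.10, -0.30 and -0.52. These medians come from genes averaging at least 1 FPKM. The course along GC content among weaker genes was not measured. Among the 7 tested factors, KLF5 and FOXA1 were highest in control replicate 1, and KLF4, ELF3, ESRP2 and HNF4A were lowest there. EHF, an epithelial ETS factor, measured 2.12, 0.694 and 0.521 FPKM in the controls and 0.242, 0.236 and 0.195 FPKM in the HYOU1 shRNA libraries. OVOL1, a zinc finger repressor, was at 0.320 FPKM in control replicate 1 and at no more than 0.0707 FPKM in any other library. GRHL2, an activator of CDH1, had 27 fragments there and 5 to 9 in each other library. CDH1 had its highest level in the same library.

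The exception among the 8 was OVOL2, the paralog of OVOL1, with 0, 0 and 3 fragments in the controls and 21, 15 and 24 in the HYOU1 shRNA libraries. It reached a filter of 0.1 FPKM only through the HYOU1 shRNA group, so no test is given. No cause was tested.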
